A study of Mus musculus with 18 samples.

Results

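C/EBPα and C/EBPβ were compared by ChIP-seq at 3 h after induction of C/EBPα in mouse pre-B cells, with 1 library for each factor. Chromosomes 1 to 19 of the mm9 genome were divided into 12361722 bins of 200 bp, and the 22557 bins that held 8 or more reads in either library at equal depth were compared. The rule chose bins by the reads of both libraries, so the read numbers that let a bin in are a description of these libraries and were not tested. Bins whose fuller library held 7 reads, just outside the rule, numbered 5580 and held on average 6.23 C/EBPα and 3.54 C/EBPβ reads, and those at exactly 8 numbered 3748 and held 7.50 and 3.85.

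The cells were C10, a line derived from HAFTL pre-B cells that carries an inducible fusion of C/EBPα with the estrogen receptor hormone-binding domain, grown with β-estradiol, IL-3 and CSF-1, which turns them into macrophage-like cells. All 18 libraries of the series came from this line, which limits the comparison to 1 cell model in which C/EBPα was supplied by a transgene. C/EBPα was profiled at 8 time points and C/EBPβ and PU.1 at 5 each, with ethanol-treated controls standing for 0 h. The 3 h libraries had both been induced and differed in antibody and in read length, 36 bases for C/EBPα and 40 bases for C/EBPβ. No input or control antibody library was used here.

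C/EBPα and C/EBPβ are basic leucine zipper transcription factors that bind DNA as dimers, with themselves or with each other, through nearly identical basic regions. Their shared binding site joins a pair of inverted TTGC arms, and the perfect palindrome is TTGCGCAA. C/EBPα is the main driver of granulocyte and macrophage commitment from progenitors, while C/EBPβ is induced by inflammatory and metabolic signals and can stand in for C/EBPα in many settings. Both cooperate with PU.1, an ETS factor of the macrophage and B lineages.

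The sequences that carry the comparison are given here on the mm9 plus strand, 5′ to 3′, with the match to a binding site in capitals. The first group had far more C/EBPα than C/EBPβ reads, and the match is to TTGCNNAA on either strand, or to TCCCNNGGG, the core of an EBF1 site, at Il6ra.
Fhad1, chr4:141508241-141508308: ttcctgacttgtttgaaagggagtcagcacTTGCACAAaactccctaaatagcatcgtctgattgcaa
Rnf149, chr1:39634371-39634438: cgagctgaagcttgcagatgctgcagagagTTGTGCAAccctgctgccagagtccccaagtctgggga
Il6ra, chr3:89717284-89717352: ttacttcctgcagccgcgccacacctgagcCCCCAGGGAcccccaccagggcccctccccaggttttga

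The second group was among the fullest bins of both factors and held reads within 2-fold of each other. Capitals mark every TTGCNNAA match on either strand.
Ndel1, chr11:68685464-68685531: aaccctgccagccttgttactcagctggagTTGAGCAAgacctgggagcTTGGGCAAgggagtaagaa
Myb, chr10:20866283-20866350: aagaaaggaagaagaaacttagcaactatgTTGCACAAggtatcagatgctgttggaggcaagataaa
Lrrk2, chr15:91463642-91463709: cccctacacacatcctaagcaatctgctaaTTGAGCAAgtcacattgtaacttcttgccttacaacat

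The third group holds the palindrome TTGCGCAA, in capitals, and is shown because its members differ widely in ratio, from more C/EBPβ than C/EBPα reads at Cdkl4 and Ctr9 to a large C/EBPα excess at Nfil3.
Cdkl4, chr17:80960250-80960317: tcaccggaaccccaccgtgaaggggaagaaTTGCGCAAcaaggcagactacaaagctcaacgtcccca
Ctr9, chr7:118167876-118167943: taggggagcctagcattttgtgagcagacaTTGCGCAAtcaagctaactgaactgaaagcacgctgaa
Fam107b, chr2:3581513-3581580: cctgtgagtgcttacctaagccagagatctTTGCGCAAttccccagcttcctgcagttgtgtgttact
Orm1, chr4:63005443-63005510: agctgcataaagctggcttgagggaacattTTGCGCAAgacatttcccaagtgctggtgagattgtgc
Nfil3, chr13:53076640-53076707: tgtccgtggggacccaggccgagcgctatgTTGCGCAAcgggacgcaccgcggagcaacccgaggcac

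The last group had more C/EBPβ than C/EBPα reads, and no letters are capital because neither stretch holds a TTGCNNAA match.
Hist1h2be, chr13:23713441-23713560: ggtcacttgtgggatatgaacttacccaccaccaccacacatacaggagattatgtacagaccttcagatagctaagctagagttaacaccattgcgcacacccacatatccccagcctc
Kif2c, chr4:116862641-116862760: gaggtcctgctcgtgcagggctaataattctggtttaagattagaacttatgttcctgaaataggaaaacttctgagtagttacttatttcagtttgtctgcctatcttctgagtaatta

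Reads at the same position and strand were counted once, which left the C/EBPα library at 3 h with 11129639 reads and the C/EBPβ library with 5844202. Duplicates were 2.51% of the C/EBPα reads, while the C/EBPβ file held none (0%) as deposited. The 18 libraries ranged from 2903580 to 24917810 reads. C/EBPα was thinned at random to 5844202 reads, and the 5285437 reads set aside gave a second draw from the same library, which measures counting error only. Only 1.69% of the C/EBPβ read positions were also positions in the C/EBPα library. All intervals below are exact 95% intervals (Poisson for reads, Clopper-Pearson for shares, and the binomial form of the latter for ratios of reads) and cover counting error only, since there was no second library of either factor.

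C/EBPα gave more reads than C/EBPβ in most of the compared bins. The compared bins held 389534 of the thinned C/EBPα reads (6.84%) and 177915 of the C/EBPβ reads (3.13%). C/EBPα was higher in 20796 bins (92.2%), C/EBPβ in 1507 (6.68%), and 254 were equal. The median log2 ratio of C/EBPα to C/EBPβ, with 1 read added to each, was 1.17, with quartiles of 0.70 and 1.65. Whether the excess came from the amount of each factor on DNA or from the antibody cannot be told apart with 1 library each.

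Most bins with C/EBPβ reads also held C/EBPα reads. Of the 8596 bins with 8 or more C/EBPβ reads, 7613 (88.6%) also held 8 or more C/EBPα reads, whereas these made up 35.3% of the 21574 C/EBPα bins. Bins past the minimum with C/EBPα alone numbered 13961 and with C/EBPβ alone 983. Among the fullest 1000 bins of each library 65.9% were shared, and among the fullest 5000 the share was 69.7%. Across the 22557 bins the log2 reads had a Pearson correlation of 0.59 and a Spearman correlation of 0.57, as a description of bins that share the same libraries, base composition and selection. Whether either antibody also bound the other factor was not tested and bears on every shared read.

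**Figure D1:**
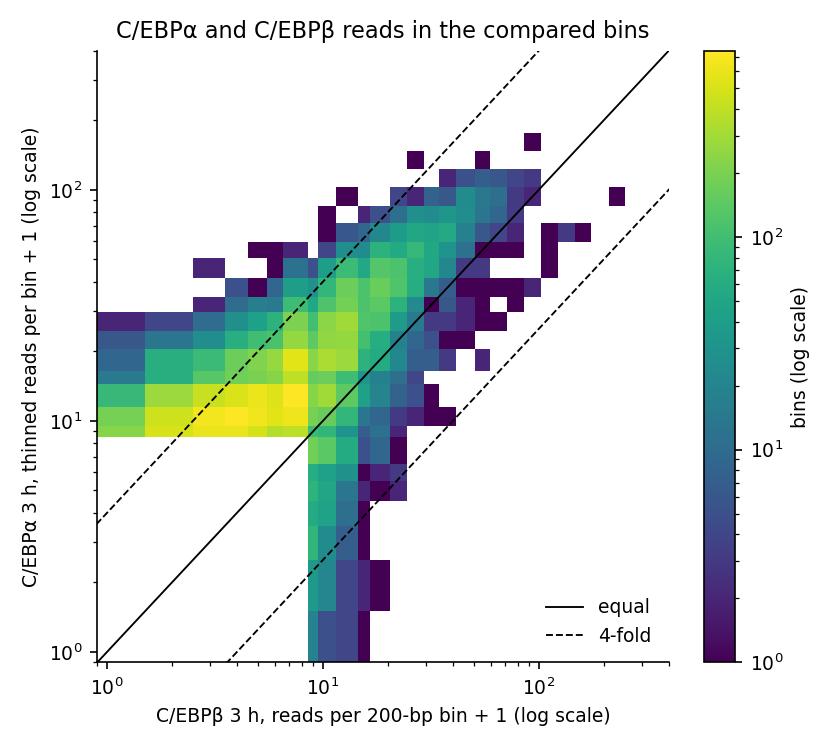
Each cell of the plot counts compared bins by their C/EBPβ reads (x axis) and thinned C/EBPα reads (y axis), both plus 1 on log scales, with the colour giving the number of bins. The mass of bins lies above the line of equality, and 104 of 22557 bins lie past the lower 4-fold line.

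Where both factors had many reads, the positions of their reads were compared in windows that these reads had chosen. In 2232 sites, which are runs of touching compared bins, both libraries had at least 20 reads within 200 bp of the centre, and the median read positions of the factors in that shared window lay a median of 13.5 bp apart. The distance was within 50 bp in 94.3% of them and over 100 bp in 0.224%. The window bounds this distance, so it is a description.

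Bins were then divided by ratio. C/EBPα was 4-fold or more higher in 3540 bins (15.7%, 15.2 to 16.2), with a median of 12 C/EBPα and 1 C/EBPβ reads. The factors were within 2-fold in 8229 bins (36.5%, 35.9 to 37.1), with medians of 11 and 8 reads, and C/EBPα was 2- to 4-fold higher or C/EBPβ 2- to 4-fold higher in 10684 (47.4%), with medians of 13 and 5. C/EBPβ was 4-fold or more higher in 104 bins (0.461%, 0.377 to 0.558), with medians of 1 and 8. Merged into 15224 sites, the shares were 16.8% C/EBPα-higher, 34.0% within 2-fold and 0.552% C/EBPβ-higher. These shares are the background for every count of sites below. With the ratio centred on the bins that held 8 reads of both factors (median 0.83 on the log2 scale), 3.25% of the bins were C/EBPα-higher, 75% within 2-fold and 1.62% C/EBPβ-higher, so the classes rest on the unscaled reads.

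The C/EBPα-higher class lay mostly at the low end of the read range. With the set-aside C/EBPα reads in place of those that defined the class, 99.0% of the 3540 bins still had more C/EBPα than C/EBPβ reads, while 50.3% were again past 4-fold and the median log2 ratio went from 2.32 to 2.01. The 104 C/EBPβ-higher bins kept their side in 103 and were again past 4-fold in 51, and 55 of them held exactly 8 C/EBPβ reads. Only C/EBPα was redrawn, and the C/EBPβ reads that had placed the bins in either class were used again. A kept side was therefore close to fixed beforehand, and the counting error of C/EBPβ did not enter. In the 383 bins with 96 or more reads of both factors summed, 61.9% were within 2-fold, 1.31% were C/EBPα-higher and the median log2 ratio was 0.86, against 1.0 to 1.14 in the classes from 16 to 95 reads. No C/EBPβ-higher bin held 32 or more reads summed.

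**Figure D2:**
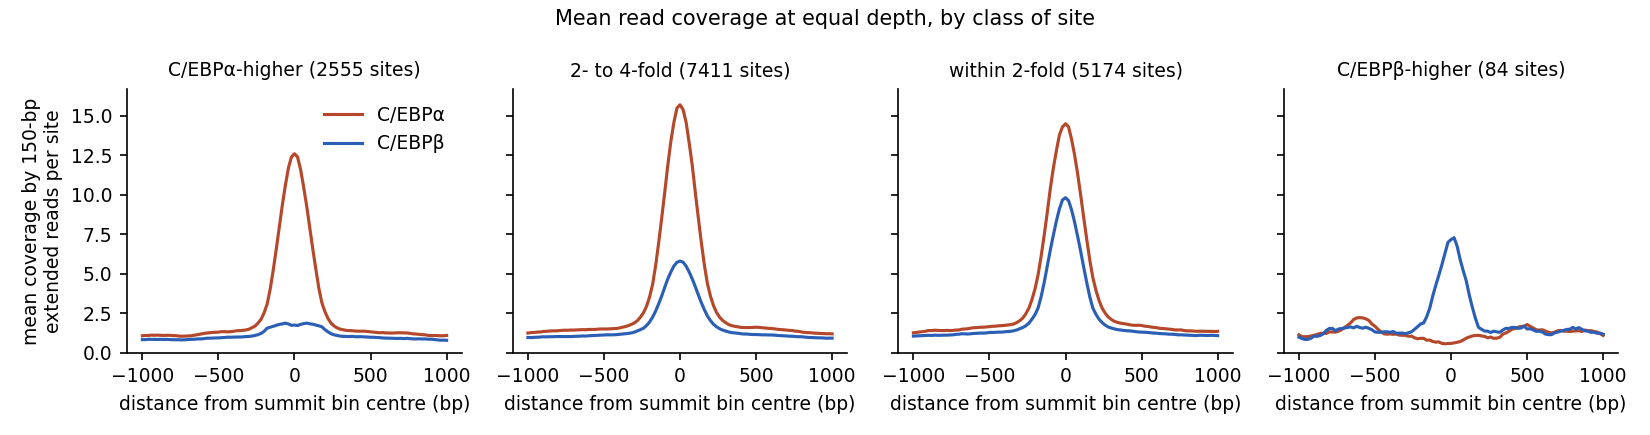
Mean coverage by reads extended to 150 bp (y axis, reads per site) around the centre of the fullest bin (x axis, bp) for C/EBPα in red and C/EBPβ in blue, in the 4 classes of sites. At the centre C/EBPβ stood at 1.76 at C/EBPα-higher sites and 9.82 at sites within 2-fold, where C/EBPα stood at 12.6 and 14.5.

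Among the fullest C/EBPα-higher sites the ratio of the factors reached over 7-fold. The site 217 bp upstream of Il6ra, which encodes the interleukin-6 receptor alpha chain, held 90 C/EBPα reads (72.4 to 111), 83 in the set-aside draw, and 12 C/EBPβ reads (6.2 to 21.0), a ratio of 7.50 (4.09 to 15.1). Its C/EBPβ signal reached 199 normalised reads (reads per 10000000 of the library) at 48 h, above the 123 of C/EBPα at that time, so the order of the factors there was reversed later. A site 19.1 kb upstream of 1700017B05Rik, a gene of unassigned function, held 71 C/EBPα and 9 C/EBPβ reads, a ratio of 7.89 (3.93 to 18).

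The other C/EBPα-higher sites named here lay near genes of varied function, and their ratios ran from 4.24 to 5.93. An intron of Fhad1 held 83 C/EBPα and 14 C/EBPβ reads. The first kilobase upstream of Rnf149, a ubiquitin ligase gene, held 73 and 15, and the start of Hsd11b1, which encodes the enzyme that regenerates active glucocorticoid, 86 and 20. An intron of Foxo3, a forkhead factor active in lymphoid cells, held 72 C/EBPα, 41 set-aside and 16 C/EBPβ reads. Cox4i1 (87 and 20), Slc24a6 (78 and 17) and Arap1 (72 and 17) completed the group. With the set-aside reads, the sites at Cox4i1, Hsd11b1, Slc24a6, Foxo3 and Arap1 lay below 4-fold.

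The fullest sites within 2-fold lay near genes of several kinds. The site with the most C/EBPα reads of all, 141 bp upstream of Ndel1, held 149 C/EBPα (126 to 175) and 88 C/EBPβ reads (70.6 to 108), a ratio of 1.69 (1.29 to 2.23). An intron of Myb, the proto-oncogene of immature blood cells, held 121 and 85 reads, a ratio of 1.42 (1.07 to 1.90). A site 9.18 kb upstream of Lyz1, a lysozyme gene, held 93 C/EBPα and 89 C/EBPβ reads, a ratio of 1.04 (0.773 to 1.41), and the intervals of the reads overlapped. Lrrk2 (120 and 86), Chek2 (113 and 78) and Arhgap12 (116 and 71) were further examples with ratios of 1.40 to 1.63.

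These sites did not behave alike later. At Lyz1 C/EBPα stood at 4.51 and C/EBPβ at 2.33 normalised reads at 0 h, rose to 151 and 152 at 3 h and stayed at 89.2 and 110 at 48 h. At Myb the corresponding values were 3.38 and 7.0 at 0 h, 194 and 145 at 3 h, and 16.3 and 21.7 at 48 h. Both factors had thus fallen far below their 3 h levels in this intron but stayed above those at 0 h. A pair of sites at Gm10801 on chromosome 2, with 131 C/EBPβ reads each against 69 and 66 of C/EBPα, belonged to 547 bins that held 8 or more normalised reads in every library, PU.1 included. Of these 547 bins 158 lay on chromosome 11, 338 were within 2-fold and none was C/EBPβ-higher, and their part in the shared class was measured by leaving them out, which gave 35.9% within 2-fold.

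**Figure D3:**
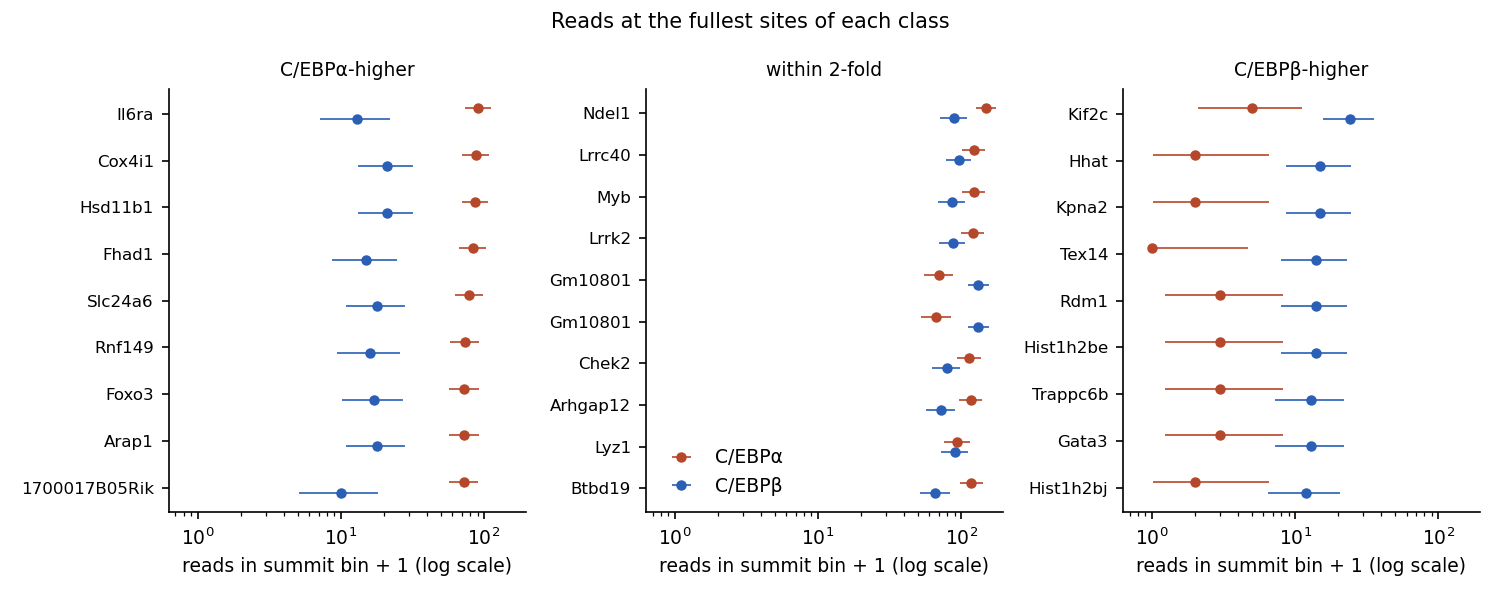
Reads plus 1 in the fullest bin (x axis, log scale) at the fullest sites of each class, named by the nearest gene, with exact 95% Poisson intervals as bars. C/EBPα is in red and C/EBPβ in blue. The sites were chosen by these reads, and the C/EBPβ-higher sites hold at most 23 C/EBPβ reads.

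C/EBP sites had similar shares at C/EBPα-higher and at shared regions. A match to TTGCNNAA on either strand was present in 28.8% of the C/EBPα-higher bins (27.4 to 30.4), 30.0% of those within 2-fold, 30.6% of those between 2- and 4-fold and 13.5% of the C/EBPβ-higher bins (7.56 to 21.6), against 9.28% of all genome bins without unknown bases. The composite C/EBP-ATF site, TTGCATCA, stood at 2.51%, 4.14%, 3.53% and 1.92% in the same order, against 0.617% in the genome. The AP-1 site TGANTCA, bound by JUN and FOS dimers, was found in 7.57% of the C/EBPα-higher and 9.11% of the shared bins, with 5.96% in the genome. Its share in the C/EBPβ-higher bins, 5.77%, was no higher than in the genome.

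Over all compared bins, the share with PU.1 reads differed more between the classes than the share with its sequence. Bins with 8 or more PU.1 reads at 3 h, at the same depth as the C/EBP libraries, made up 23.8% of the C/EBPα-higher (22.4 to 25.3), 31.0% of the shared (30.0 to 32) and 8.65% of the C/EBPβ-higher bins (4.03 to 15.8), against 0.400% of the genome. Before induction, at 0 h, the shares were 15.3%, 21.3% and 7.69%. The PU.1 sequence GAGGAAGT stood at 4.44%, 4.18% and 1.92%, against 1.2% in the genome. C/EBPα-higher and shared bins had overlapping intervals for the sequence but not for PU.1 reads at 3 h. These intervals take bins as independent, although touching bins are not, and PU.1 at 3 h was 1 library. They are therefore no test of a difference between the classes. Within the 3334 bins of 40 or more summed reads the PU.1 share no longer followed the ratio, at 46.0%, 46.9%, 45.3%, 43.6% and 46.1% from the lowest to the highest quintile of the ratio.

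Some sequences, among them those bound by EBF1 and E2A, were more common where C/EBPα exceeded C/EBPβ most. EBF1, which specifies the B lineage, has the core TCCCNNGGG, and it was present in 9.66% of the C/EBPα-higher bins (8.71 to 10.7), 7.88% of those between, 5.97% of the shared bins (5.46 to 6.50) and 1.87% of the genome. In the quintiles of the 3334 fuller bins its share was 4.80%, 7.05%, 8.10%, 9.30% and 14.3% from the lowest to the highest ratio. CAGCTG, an E-box bound by E2A, followed the same order in the quintiles with 13.2%, 17.2%, 17.7%, 18.1% and 20.4%, against 7.37% of the genome. The PU.1 sequence had no steady order in the quintiles, at 5.40%, 6.75%, 6.75%, 5.25% and 7.66%. The SP/KLF box CCCCGCCC was found in 3.02% of the C/EBPα-higher bins, 0.948% of the shared bins and 0.571% of the genome. It went from 0.450% in the lowest quintile to 3.15% in the highest.

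Base composition moved with the EBF1, E2A and SP/KLF sequences. The mean GC content was 49.0% in C/EBPα-higher and 45.9% in shared bins, against 41.9% in the genome, and rose from 44.5% to 50.3% over the quintiles. In the fuller bins the median log2 ratio was 0.81 below 40% GC and 1.42 from 55% GC upward. Within 5 classes of GC content, from under 40% to 55% and over, the EBF1 core was present in 2.02%, 4.67%, 6.40%, 11.2% and 10.6% of the fuller bins in the lower part of the ratio and in 1.77%, 6.87%, 10.2%, 13.0% and 20.5% of those in the upper part. The exact binomial intervals of both parts overlapped in every class of GC content, and the part of GC content in the EBF1 difference was not tested. For the E-box the shares were 6.06%, 12.2%, 18.1%, 24.8% and 19.2% against 13.3%, 12.5%, 19%, 25.3% and 22.0%, which lie close together between 40% and 55% GC. The part of GC content in the SP/KLF difference was not tested. Among the other sequences searched, the runt site TGTGGTT stood at 8.39% and 8.25% in C/EBPα-higher and shared bins (genome 4.73%) and the CRE TGACGTCA at 0.565% and 0.401% (genome 0.111%). The ETS site CCGGAAGT stood at 0.763% and 0.474% (genome 0.124%), the NRF1 site GCGCATGC at 0.452% and 0.243% (genome 0.223%), and the YY1 site AAGATGGC at 1.10% and 1.09% (genome 1.77%).

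The palindromic C/EBP site, which is also a match to TTGCNNAA, had a larger share of its bins compared than TTGCNNAA as a whole. It occurred in 1941 bins of the genome, and 357 of these (18.4%, 16.7 to 20.2) were among the compared bins, whereas 0.609% of all bins with any TTGCNNAA and 0.188% of all bins were. The palindrome was held by 0.621% of the C/EBPα-higher bins (0.390 to 0.939) and 2.59% of the shared bins (2.26 to 2.95), against 0.0162% of the genome. In the quintiles of the fuller bins its share went from 5.70% at the lowest ratio (4.06 to 7.74) to 1.05% and 2.10% in the highest quintiles, while that of any C/EBP site stayed between 41.8% and 45.8%.

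Over the 357 palindromic bins the median log2 ratio was 0.56, with quartiles of -0.15 and 1.17, against 1.17 over all compared bins. With the set-aside C/EBPα reads, scaled to the same depth, the medians were 0.38 and 0.99 in the same bins, which had been chosen with the other draw. The factors were within 2-fold in 213 of them (59.7%, against 36.5% of all bins), C/EBPα was 4-fold higher in 22, and C/EBPβ equalled or exceeded C/EBPα in 114. This form joins a pair of complete arms at a CpG. TTGCGTAA, which keeps the CpG but not the symmetry, had a median of 0.87 in 361 bins, and all forms with a CpG together, the palindrome included, 0.89 in 1092 bins. C/EBP sites without a CpG had a median of 1.21 in 5674 bins and bins with no match 1.17 in 15791, so sites without a CpG and bins with no match lay close together.

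The palindromic bins had the smaller ratio across GC content. In each of 5 classes of GC content, from under 40% to 55% and over, their median log2 ratio was below that of the C/EBP sites without a CpG, at 0.23 against 1.12, 0.34 against 1.14, 0.54 against 1.22, 0.46 against 1.34 and 1.12 against 1.58. The numbers of palindromic bins behind these were 55, 69, 85, 71 and 77.

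At the named palindromic sites the ratios spanned a wide range. In an intron of Cdkl4, a kinase gene, C/EBPα had 70 reads, 63 in the set-aside draw, and C/EBPβ 78. Upstream of Ctr9, a subunit of the PAF1 elongation complex, the reads were 59, 64 and 78. These 2 sites had more C/EBPβ reads with both draws, but both draws were set against the same C/EBPβ reads. No interval was computed for their ratios. Upstream of Fam107b they were 101, 70 and 60, at Btbd19 117, 117 and 65, and in an intron of Zc3h12d 103, 78 and 50. At the promoter of Orm1, an acute-phase glycoprotein gene and classical C/EBP target, 93 bp upstream of the start, they were 95, 79 and 45, a ratio of 2.11 (1.47 to 3.08). The Nfil3 promoter, 259 bp from the start of a bZIP repressor gene, had 47, 31 and 6, a ratio of 7.83 (3.34 to 22.4), although its 8 bases are the same as at Cdkl4.

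The median levels of both factors in the palindromic bins were above those in other C/EBP bins before induction, although single bins ranged widely and Orm1 stood at 3.38 for C/EBPα and 2.33 for C/EBPβ at 0 h. In the 84 with 40 or more summed reads at 3 h, the median C/EBPα level was 31.0 normalised reads at 0 h, 22.3 at 10 min, 53.8 at 30 min, 62.4 at 60 min, 74.1 at 3 h, 51.1 at 12 h, 27.7 at 24 h and 29.5 at 48 h. The median C/EBPβ level in the same bins was 24.5, 41.9, 58.5, 81.6 and 131 at 0, 3, 12, 24 and 48 h. The bins had been chosen for their reads at 3 h, so the values at that time are a description. In the 1230 bins with a C/EBP site but no CpG, C/EBPα stood at 4.51 at 0 h, 67.4 at 3 h and 21.4 at 48 h, and C/EBPβ at 4.67, 30.8 and 41.4.

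The ratios of the forms spread further apart at the later times, in libraries that did not enter the choice of bins. The median log2 ratio of normalised C/EBPα to C/EBPβ reads in the 84 palindromic bins was 0.27, 0.76, 0.07, -1.08 and -2.10 at 0, 3, 12, 24 and 48 h. In bins with a C/EBP site without a CpG it was -0.03, 1.14, 0.98, -0.13 and -0.79, and in the 1877 bins with no C/EBP match -0.04, 1.08, 1.08, 0.07 and -0.63. The 227 bins of all CpG forms, the palindrome included, lay between these and the palindrome at every time after induction, at 0.90, 0.22, -0.91 and -1.67. Both factors' libraries at each time are single, so the comparison between times also holds the change of library.

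**Figure D4:**
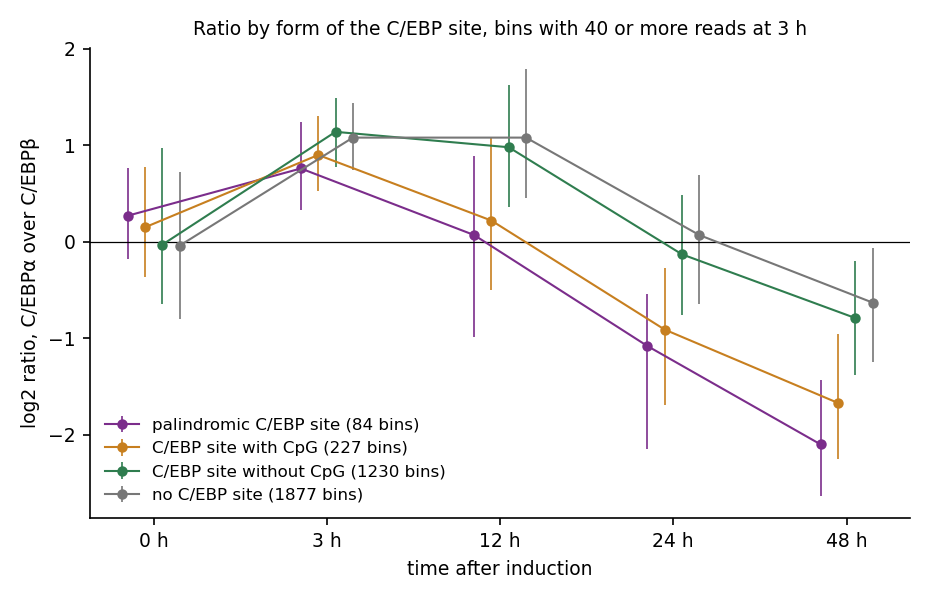
Median log2 ratio of C/EBPα to C/EBPβ (y axis) at 5 times after induction (x axis) in bins with 40 or more reads at 3 h, by the form of the C/EBP site, with quartiles as bars. Palindromic bins go from 0.76 at 3 h to -2.10 at 48 h, and bins without a C/EBP match from 1.08 to -0.63.

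Regions with higher levels before induction had a smaller C/EBPα excess at 3 h. Compared bins were grouped by the mean of both factors at 0 h, in libraries the rule did not use. The median log2 ratio at 3 h was 1.24 in the 12949 bins under 4 normalised reads, then 1.14, 1.0 and 0.67, and 0.40 in the 219 bins at 32 or more. With the set-aside C/EBPα reads the decline was smaller, with medians of 1.04, 0.98, 0.93, 0.58 and 0.46 over the same classes. The palindrome rose over the same classes from 0.479% to 1.53%, 4.21%, 7.22% and 19.6% of bins. Bins with a C/EBP site without a CpG went only from 1.26 to 0.95, while bins without any match went from 1.22 to 0.00. Without the bins that were high in every library, 89 remained at 32 or more, with a median of 0.58 and a palindrome in 38.2%, and those without any match had a median of 0.58. In the fuller bins the decline was seen only at 32 or more, with medians of 1.10, 1.12, 1.15, 1.04 and 0.52 over the 5 classes. In that highest class the fuller bins without any match had a median of -0.11. Palindromic ones had 0.61 and C/EBP sites without a CpG 1.03. The 7 palindromic fuller bins in the lowest class had a median of 1.12, against 1.10 for the C/EBP sites without a CpG.

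**Figure D5:**
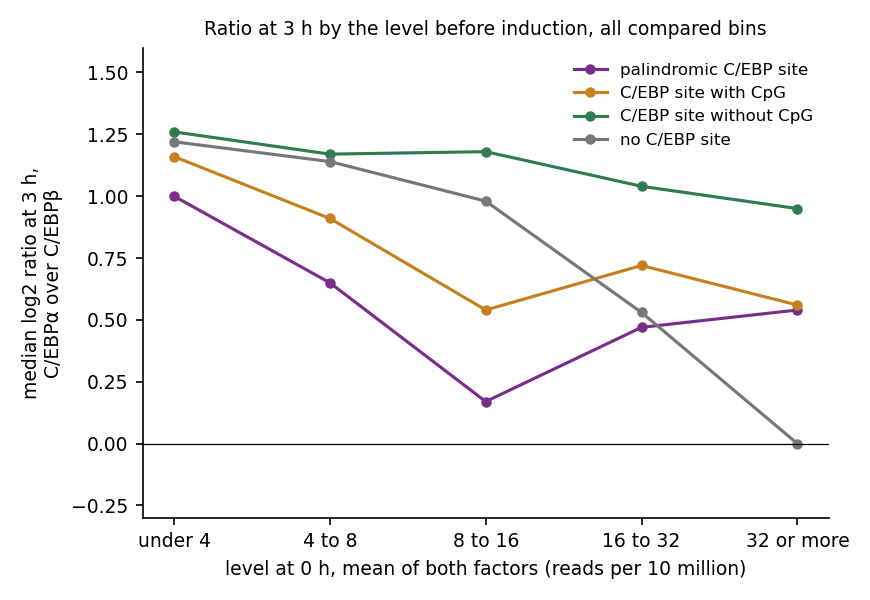
Median log2 ratio of C/EBPα to C/EBPβ at 3 h (y axis) in compared bins grouped by the mean of both factors at 0 h (x axis, reads per 10000000), by form of the C/EBP site. The palindromic bins lie below the C/EBP sites without a CpG in all 5 classes of all compared bins, with medians from 0.17 to 1.0 against 0.95 to 1.26.

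The class of a bin at 3 h carried over only in part. At 12 h C/EBPα exceeded C/EBPβ in normalised reads in 71% of the C/EBPα-higher bins and in 61.7% of the shared bins, at 24 h in 50.4% and 36.6%, and at 48 h in 29.4% and 20.5%. The share was thus larger in C/EBPα-higher than in shared bins at each of these times, although C/EBPβ was the higher factor in most bins of either class by 48 h. At 12 h the median C/EBPβ level in the C/EBPα-higher bins was 3.44 normalised reads, with a first quartile of 0. The C/EBPβ library at 12 h held 2903580 reads and that of C/EBPα 5970869, so the order there rests on few reads. Before induction the shares were 44.3% and 42.9%. The mean C/EBPβ level at 48 h was 19.4 times that of the other genome bins in the C/EBPα-higher bins, 34.1 times in the shared bins and 27.8 times in those between.

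A minority of the few regions with a C/EBPβ excess lay at histone and small RNA genes, and 63 of the 84 sites did not. Of the 84 C/EBPβ-higher sites, 21 (25%) lay within 1 kb of the start of a histone gene (11) or within 500 bp of a small RNA gene (10), a grouping made after the names of the sites had been seen. The same genes accounted for 0.406% of the sites within 2-fold and 0.117% of the C/EBPα-higher sites. The small RNA genes were annotated as U1, U2, U3, U4, U5 and Y RNA, which serve in splicing, ribosomal RNA processing and RNA quality control. Starts of genes lay within 1 kb of 26.9% of the C/EBPβ-higher bins (18.7 to 36.5), 14.6% of the C/EBPα-higher bins and 10.8% of the shared bins, against 3.18% of the genome. With classes made from the set-aside reads the excess over C/EBPα-higher bins shrank: the C/EBPα-higher share minus the C/EBPβ-higher share went from -12.3 to -1.61 percentage points.

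Compared sites at histone gene starts held mostly C/EBPβ reads. They entered by having 8 reads of either factor, which was mostly C/EBPβ, and were grouped after their names were seen, so their counts at 3 h are a description. Of the 30 sites, 11 were C/EBPβ-higher, 5 within 2-fold, 14 between and none C/EBPα-higher, against 0.552% C/EBPβ-higher among all sites, and 25 (83.3%) had more C/EBPβ reads. Their summed reads were 139 for C/EBPα and 314 for C/EBPβ, and the median log2 ratio was -1.58, or -1.48 with the set-aside reads. The median C/EBPβ level at these sites was 12.8 normalised reads at 0 h, 15.4 at 3 h, 5.17 at 12 h, 6.40 at 24 h and 5.91 at 48 h, and that of C/EBPα 3.38, 4.94, 5.02, 2.64 and 2.51 at the same times, so the medians were nearly equal at 12 h. PU.1 stood at 3.04 at 3 h. At the 1817 other sites near a gene start the median log2 ratio was 1.26 and 9 (0.495%) were C/EBPβ-higher.

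Single histone sites held few reads. The site 508 bp upstream of Hist1h2be, an H2B gene, had 2 C/EBPα reads, 6 in the set-aside draw, and 13 C/EBPβ reads (6.92 to 22.2). At Hist1h1d, a linker histone gene, the reads were 0, 1 and 11, at Hist1h2bj 1, 3 and 11, and at Hist1h3c 1, 2 and 11. All of these lie on chromosome 13 in the large histone cluster, where copies of the same gene can share sequence. Starts of 36-base reads were unique in the genome on average at 93.3% of positions in the C/EBPβ-higher histone bins and of 40-base reads at 94.1%, and no C/EBPβ-higher bin gained over 10 percentage points from the longer reads.

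Among the C/EBPβ-higher sites named here, the one with the most C/EBPβ reads was next to a U5 small nuclear RNA gene. It lay 7.46 kb from Kif2c on chromosome 4, with 4 C/EBPα (1.09 to 10.2), 5 set-aside and 23 C/EBPβ reads (14.6 to 34.5). C/EBPβ stood there at 23.3 normalised reads before induction, 39.4 at 3 h, 17.2 at 12 h, 6.40 at 24 h and 25.6 at 48 h, against 8.09 for C/EBPα at 3 h. A second U5 gene in an intron of Hhat had 1, 3 and 14 reads. A U3 gene in an intron of Tex14 had 0, 0 and 13, and U2 genes near Rdm1 and Trappc6b 2, 2 and 13 and 2, 2 and 12. The 27 sites at small nuclear RNA genes had a median log2 ratio of -0.74, 8 were C/EBPβ-higher and 16 (59.3%) had more C/EBPβ reads. All 42 sites at small RNA genes had a median of -0.44, with 10 C/EBPβ-higher, 3 C/EBPα-higher and 23 (54.8%) with more C/EBPβ reads. Over all sites 0.552% were C/EBPβ-higher and 6.02% had more C/EBPβ reads. The small RNA sites also entered by 8 reads of either factor. They were grouped after their names were seen, so their counts are a description. In the C/EBPβ-higher small RNA bins 80.2% of 36-base and 81.2% of 40-base read starts were unique, and 2 of the 10 were under 50%.

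Away from these genes, a site near Kpna2, an importin gene, had 1 C/EBPα, 0 set-aside and 14 C/EBPβ reads. A site 115 kb from Gata3 had 2, 7 and 12, so its excess shrank with the second draw. In the 104 C/EBPβ-higher bins as a whole, the mean C/EBPβ level was 20.8 times that of the other genome bins at 3 h, 8.28 times at 0 h and 10.5 times at 48 h. The value at 3 h comes from the reads that chose these bins. C/EBPα stood at 4.01, 4.75 and 4.84 times at the same times, and PU.1 at 6.40, 4.77 and 4.99 times. At 12 h C/EBPβ stood at 7.44 and C/EBPα at 6.59 times. C/EBPβ exceeded C/EBPα in normalised reads in 67.3% of the 104 bins at 0 h, 49.0% at 12 h, 68.3% at 24 h and 74.0% at 48 h, against 52.5%, 36.7%, 61.8% and 78.1% of the shared bins.

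Genes of the myeloid programme and of the B lineage were set against all 13533 sites within 100 kb of a gene start, of which 2301 (17%) were C/EBPα-higher, 4563 (33.7%) within 2-fold and 77 C/EBPβ-higher, with a median log2 ratio of 1.19. The medians of the larger lists lay between 1.13 and 1.40. Among 58 sites of myeloid regulators 7 were C/EBPα-higher, 25 within 2-fold and 1 C/EBPβ-higher (median 1.13). Besides Myb, the fullest lay at Nfe2 (96 C/EBPα and 30 C/EBPβ reads), Runx1 (90 and 28) and Klf2 (50 and 15), which encode an erythroid-myeloid bZIP factor, a runt factor of all definitive blood cells and a zinc-finger factor. Sfpi1, which encodes PU.1, had 4 sites with 76 and 25, 31 and 22, 31 and 9, and 25 and 10 reads, none C/EBPα-higher.

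Among 91 sites of macrophage receptors and enzymes 17 were C/EBPα-higher, 29 within 2-fold and 1 C/EBPβ-higher (median 1.26). Lyz1 had the lowest ratio of the fullest sites. Lyz2, the lysozyme gene of macrophages, was named outside the rule after its values were seen, and its site had 10 C/EBPα and 7 C/EBPβ reads. The Lyz1 site was followed by Tlr2, a sensor of bacterial lipoproteins, with 86 and 59 reads. Ncf1, an NADPH oxidase subunit, had 94 and 37, Tyrobp, a signalling adaptor, 59 and 21, and Ifngr2, an interferon-γ receptor chain, 50 and 17. Csf1r, the CSF-1 receptor, was named outside the rule after its values were seen: its intronic site had 50 C/EBPα, 44 set-aside and 5 C/EBPβ reads, a ratio of 10.0 (4.01 to 32.1), and C/EBPα and C/EBPβ stood at 30.2 and 15.8 normalised reads at 48 h.

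Granule and acute-phase genes had 19 sites, of which 1 was C/EBPα-higher, 14 between 2- and 4-fold and 4 within 2-fold (median 1.17). Orm1 was followed by Prtn3 (57 C/EBPα and 19 C/EBPβ reads), Camp (52 and 18) and Hp (29 and 13), which encode a neutrophil protease, the cathelicidin and haptoglobin. Saa3, a serum amyloid, was the C/EBPα-higher one with 22 and 4. Cytokine and inflammation genes had 64 sites, 7 of them C/EBPα-higher and 18 within 2-fold (median 1.30). Distal sites near Nfkbiz (86 and 71), Il6 (75 and 56) and Ptgs2 (90 and 46) were within 2-fold, and those at Ccl3 (70 and 28) and Il1b (68 and 27) were not.

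The B-lineage genes had 77 sites, 14 C/EBPα-higher and 24 within 2-fold (median 1.22). Bach2, a B-cell repressor of the myeloid programme, had 64 C/EBPα and 36 C/EBPβ reads in an intron, Il7r, the interleukin-7 receptor, 34 and 20, Igll1, a surrogate light chain, 61 and 19, Lef1 58 and 15, and Bcl11a 40 and 9. At Bach2 both factors were low again at 48 h, at 5.03 and 1.97 normalised reads. C/EBPα-higher sites made up 18.2% of those at B-lineage genes and 17% of all sites near genes.

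Genes of the C/EBP family had 4 sites. Ddit3, the stress-induced inhibitor CHOP, had 31 C/EBPα and 13 C/EBPβ reads, Cebpg 12 and 4, and Cebpz, a CCAAT-binding protein without a leucine zipper, 8 and 5. Cebpd had no match by name in the annotation used and was not analysed here. No compared site within 100 kb of Cebpa or Cebpb had either as its nearest gene. Only the fullest bin within 100 kb of each start was looked up. The fullest bin within 100 kb of Cebpb held 93 and 30 reads, 65.3 kb away and nearer to Tmem189, and that of Cebpa 24 and 9, 77.8 kb away and nearer to Pepd. The paper describes a de novo enhancer of Cebpb at about the former distance. AP-1 and ATF genes had 27 sites, 8 C/EBPα-higher and 8 within 2-fold (median 1.40). Atf3 had 49 and 15 reads, Nfil3 47 and 6, Junb 40 and 6, Fosl2 29 and 25, and Batf 27 and 17. Integrated stress response genes had 31 sites, 6 C/EBPα-higher and 6 within 2-fold (median 1.32), with Chac1 at 68 and 14, Atf4 at 36 and 8, Nupr1 at 31 and 10 and Slc3a2 at 28 and 12. Sars, a tRNA synthetase gene, had 17 C/EBPα, 20 set-aside and 29 C/EBPβ reads, a ratio of 0.586 whose interval (0.302 to 1.10) includes 1.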

How the data were processed

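The ChIP-seq files were used as the authors deposited them, with 1 line per aligned read and its mm9 position and strand. Per the labels and the study's methods, reads were aligned uniquely and without mismatches (ELAND or Bowtie), identical tags were removed, and enriched regions were called with HOMER, which was not used here. No input library entered. The depth per library is given above. Reads sharing position and strand were counted once, 5′ ends were moved 75 bp inward, C/EBPα at 3 h was thinned with seed 17, and bins of 200 bp without a test were compared as log2((C/EBPα + 1)/(C/EBPβ + 1)), since there was 1 library per factor. Touching bins were merged to sites and named by the nearest protein-coding start (GENCODE for mm9). The text names the 10 fullest sites per class, leaving out those with under 25% of reads on 1 strand, and up to 5 genes per list. Some sites that meet this rule are not reported here. Bins, members and lists were chosen with earlier results of these data known. The groupings by CpG, by level at 0 h, by GC content and by histone and small RNA genes were chosen after values were seen. Positions are 1-based. Python 3.11.15, NumPy 2.4.6, pandas 2.3.3 and SciPy 1.17.1 were used, and the steps were tested on simulated data. Other minimums, folds, pseudocounts, bin sizes, grids, draws and scalings were tried. Besides the pair at 3 h, the libraries of C/EBPα and C/EBPβ at the other times and of PU.1 entered as levels at these bins.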

Additional observations from a re-analysis of the deposited data

How the results depend on the processing

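The results were recomputed under up to 15 alternatives and 2 more chosen after seeing the data (centring the ratio on the bins with 8 reads of both, median 0.83, and leaving out bins high in every library). Over 32 results, 223 of 311 values stayed within the limits set for them, 88 moved past them and none reversed. The limits were the counting interval of the main value for shares, differences and log2 ratios, and a fixed fold for counts of bins. Only differences and log2 ratios could reverse. Shares of sequences, PU.1 and gene starts per class and the order at later times were recomputed under fewer of these, and the rest were not run for them. Chromosome X was added only for the counts, shares and median over all bins, not for the palindromic or histone bins. The low numbers of reads and the lack of a second library limit the class of a single bin, and no paired analysis was possible because each factor and time has 1 library. The cause of a change was not tested except where the setting itself sets the number.

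The number of compared bins was 12514 with a minimum of 12 reads, 38835 with 6, and 36792 with 500-bp bins. Because the deposited C/EBPβ file held no duplicates, keeping duplicates added copies to C/EBPα only. The C/EBPα-higher share was 14.5% with a minimum of 12, 61.4% at 2-fold, 2.99% at 8-fold, 17.9% with a pseudocount of 0.5, 15% with the set-aside reads, 11.5% without thinning, 14.2% with duplicates kept, 9.5% with 500-bp bins and 3.25% after centring. The C/EBPβ-higher share was 0.104% with a minimum of 12, 2.65% with 6, 2.08% at 2-fold, 0.133% at 8-fold, 0.749% with the set-aside reads, 0.361% with duplicates, 2.88% with 500-bp bins, 0.620% with the grid moved and 1.62% after centring. The share within 2-fold was 34.1% with a minimum of 12, 37.9% with the set-aside reads, 41.5% without thinning, 35.2% with duplicates, 44.1% with 500-bp bins, 35.8% with the grid moved, 35.9% without the bins high in every library and 75% after centring. The median log2 ratio was 1.22 with a minimum of 12, 1.09 with 6, 1.22 with the pseudocount of 0.5, 1.14 with the set-aside reads, 1.12 without thinning, 1.23 with duplicates, 0.87 with 500-bp bins, 1.22 when scaled to reads outside the bins and 0.34 after centring.

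The C/EBP sequence was more common in C/EBPα-higher than in C/EBPβ-higher bins by 15.4 percentage points, by 22.3 with duplicates kept and by 32.2 with a minimum of 12, where 13 C/EBPβ-higher bins were left and none held the C/EBP or the PU.1 sequence. For the PU.1 sequence the difference was 5.07 points with a minimum of 12 in place of 2.51, and for PU.1 reads at 3 h 21.3 with a minimum of 12 and 6.40 at 2-fold in place of 15.2. Nearness to a gene start differed by -12.3 points and by -1.61 with the set-aside reads. Pooled over the times 12, 24 and 48 h, the share of bins past 4-fold with the same order as at 3 h was 50.7%, and it was 53.6% with a minimum of 12, 48.2% at 2-fold and 53.4% with duplicates. The palindromic bins lay -0.61 from all compared bins in median log2 ratio, and -0.43 with 500-bp bins.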
